A study of Zea mays with 4 samples.

Results

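The miR171 family of plants is conserved from mosses to flowering plants and acts on transcripts of GRAS transcription factors, above all the HAIRY MERISTEM group (also called SCL6 in Arabidopsis), which keeps cells of shoot and root meristems undifferentiated. A miRNA precursor folds into a hairpin that is cut into a duplex of a 5p and a 3p strand, of which 1 is usually kept in the silencing complex and the other, the star strand, is mostly lost. In Arabidopsis the strand of miR171 that pairs with the GRAS transcripts comes from the 3p arm. Targets of the strands described below were not examined.

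Described here are both arms of miR171h and miR171k in maize root tips: the entries zma-miR171h-5p, zma-miR171h-3p, zma-miR171k-5p and zma-miR171k-3p, which are 4 of 576 entries in the deposited table. They were chosen by their measured values, because the 5p strands had been seen to hold most of the difference of the miR171 family between these libraries. Their levels and ratios are therefore given as a description. In RefSeq's gene table for the assembly Zm-B73-REFERENCE-NAM-5.0, which lists 14 miR171 genes, MIR171h and MIR171k are separate genes that do not neighbour each other, and neither has a miRNA gene next to it.

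Small RNA was sequenced from tips of 1 cm length of maize (Zea mays) roots of the hybrid cultivar Zhengdan 958, grown in Hoagland's nutrient solution with no other treatment named for these samples. Of the 4 groups, PRY is the primary root at an early stage, 3 days after germination, and PRO is the primary root at a later stage, 15 days after it. SR is the seminal root, a further root formed in the embryo, at 7 days, and CR is the crown root, which arises from the shoot, at 15 days. Each group was 1 library, so differences compare libraries, have no replicate check and carry no p-value, and the labels do not say how many plants a library held. Root type and days after germination differ together in every comparison except PRO against PRY and CR against PRO. PRO and PRY differ in age and stage within the primary root. CR and PRO differ in root type and are both at 15 days after germination. Those days give the age of the seedling, not of the root, so root type cannot be told apart from root age there. A tip holds several tissues, so fewer cells that make a miRNA and less of it per cell cannot be told apart.

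The deposited values are reads of an entry for each 1000000 reads of a library total (RPM), and whole reads were recovered from them, with totals between 10721082 and 11572637 reads. At this depth 1 read was worth 0.0864 to 0.0933 RPM, and a floor of 3 reads was worth 0.259 to 0.280 RPM. For an entry with 0 reads, the upper end of the exact 95% interval lay at 0.319 (SR) to 0.344 RPM (PRY). Intervals below are exact 95% intervals that cover counting error alone and take reads as independent. Reads copied by PCR and not tagged by molecule are not independent, so these intervals may be too narrow. A table of miRNAs holds no marker genes of root tissue. As a check on other tissue, 15 entries of miR2118 and miR2275, which start the making of phased siRNAs in flowers, together had 2 reads in PRY, as many in PRO, and 0 in both SR and CR.

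The 5p strand was the main product of both members. zma-miR171h-5p stood at 9.42 RPM in PRY (101 reads, interval 7.67 to 11.4), 19.7 in PRO (218 reads, 17.2 to 22.5), 24.9 in SR (288 reads, 22.1 to 27.9) and 22.9 in CR (250 reads, 20.1 to 25.9). zma-miR171k-5p carried exactly the same 4 values. PRY was the low library, and its interval did not meet that of any of the other libraries. By level, miR171h-5p ranked 96 of 576 entries in PRY, 79 in PRO and 68 in both SR and CR.

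The 3p strand was scarce. zma-miR171h-3p had 4 reads in PRY (0.373 RPM, interval 0.102 to 0.955), 30 in PRO (2.71 RPM, 1.83 to 3.87), 25 in SR (2.16 RPM, 1.40 to 3.19) and 20 in CR (1.83 RPM, 1.12 to 2.83). zma-miR171k-3p was again equal to it in every library. PRY was low for this strand too, while PRO, not SR, was highest, with intervals of PRO, SR and CR that overlap.

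**Figure D1:**
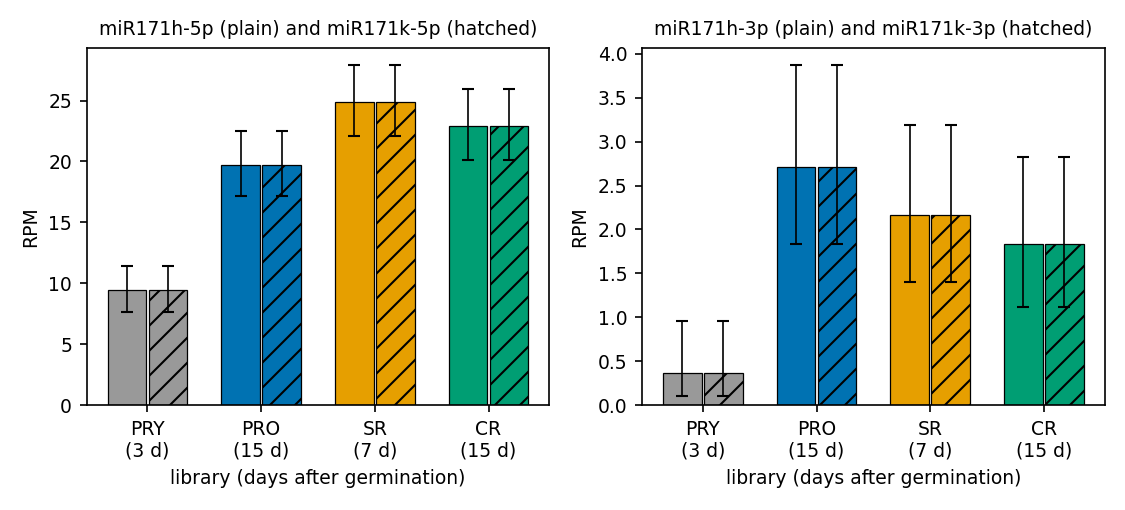
Level in RPM (bars, axes from 0) of the 5p strand (left) and the 3p strand (right) of miR171h (plain) and miR171k (hatched) in the 4 libraries, with exact 95% counting intervals. PRY is lowest in both panels, at 9.42 RPM for the 5p and 0.373 RPM for the 3p strand, and the bars of miR171h and miR171k have equal heights.

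The 4 entries thus hold 2 distinct sets of values. How reads that match several entries were assigned is not given in the sources used here, and equal values in all 4 libraries mean that the contribution of each gene cannot be told apart. miR171h is used below for both, and its reads are counted once.

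Of the family's 28 entries, from 14 members with both arms listed, 16 had at least 1 read. Of the 24 entries other than miR171h and miR171k, 12 had 0 reads in all 4 libraries, 9 of them 5p and 3 of them 3p strands. None of the 24 reached 10 RPM in any library, and the highest value among them was 5.61 RPM. The 3p strands of 6 members, miR171b, d, e, f, i and j, lay within 2 reads of each other in every library, and miR171d-3p, as high as or higher than any of the others in PRY, PRO and SR, stands for them here. It had 30 reads in PRY (2.80 RPM), 62 in PRO (5.61 RPM), 40 in SR (3.46 RPM) and 32 in CR (2.93 RPM), so it was highest in PRO.

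Of the other 5p strands, 2 were detected beyond single reads, and both had a different order from miR171h-5p. miR171f-5p had 49 reads in PRY (4.57 RPM), 58 in PRO (5.25 RPM), 35 in SR (3.02 RPM) and 21 in CR (1.92 RPM). miR171i-5p had 21 reads in PRY (1.96 RPM), 7 in PRO (0.633 RPM), 12 in SR (1.04 RPM) and 10 in CR (0.916 RPM). PRY, the lowest library for miR171h-5p, was thus the highest for miR171i-5p in RPM, and CR was the lowest for miR171f-5p. Scaled to the total over distinct miRNA entries, as described below, miR171i-5p was level between CR and PRY, with a ratio of 1.01. miR171g-3p had 3 to 6 reads per library, and miR171g-5p, miR171l-3p and miR171m-3p had 1 read each in a single library.

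With each group of equal or near-equal entries counted once, the family summed to 34.9 RPM in SR, 34.2 in PRO, 31.0 in CR and 19.8 in PRY. miR171h-5p made up 47.6% of these family reads in PRY (interval 40.8 to 54.6), 57.7% in PRO (52.5 to 62.7), 71.3% in SR (66.6 to 75.7) and 74.0% in CR (68.9 to 78.6). All entries other than both arms of miR171h summed to 11.8 RPM in PRO, 9.98 in PRY, 7.86 in SR and 6.23 in CR. This order holds for the library total: scaled to the total over distinct miRNA entries, PRY was lowest, with ratios to it of 1.68 in PRO, 1.40 in SR and 1.35 in CR. The grouping was chosen after the values were seen. With only exactly equal entries counted once, which counts the 6 near-equal 3p strands repeatedly, the share of miR171h-5p was lower and in the same order, at 62.0% in CR, 59.8% in SR, 43.8% in PRO and 37.1% in PRY.

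**Figure D2:**
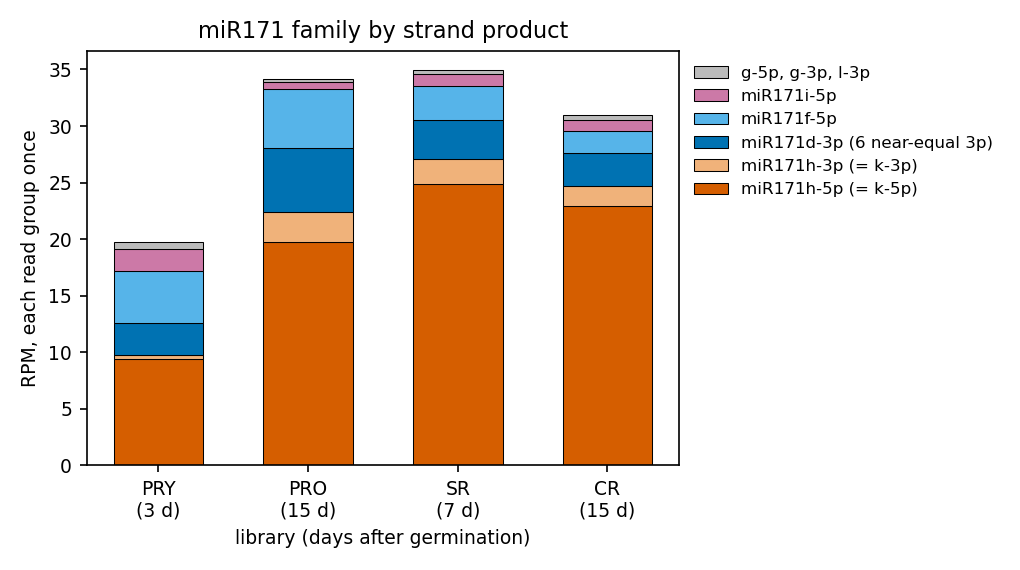
Sum of the miR171 family in RPM in each library (stacked bars, axis from 0), with miR171h standing for miR171k as well and miR171d-3p for 6 near-equal 3p strands. The miR171h-5p segment grows from 9.42 RPM in PRY to 24.9 RPM in SR, while the segments above both arms of miR171h sum to between 6.23 RPM (CR) and 11.8 RPM (PRO).

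In PRO against PRY, which follows stage within the primary root, miR171h-5p was 2.09-fold higher (1.65 to 2.68) and miR171h-3p 7.27-fold higher (2.56 to 28.4, on 30 against 4 reads). The near-equal 3p strands were higher as well, by 2.00-fold for miR171d-3p (1.28 to 3.21). For miR171f-5p the ratio was 1.15 (0.771 to 1.71), with an interval that includes 1. miR171i-5p was 3.09-fold lower (1.27 to 8.62). Scaled to the total over distinct miRNA entries, the ratios became 2.85 for miR171d-3p, 1.63 for miR171f-5p and 0.460 for miR171i-5p. Of the family's difference of 14.4 RPM, 10.3 RPM lay in miR171h-5p, 2.34 in miR171h-3p and 1.78 in all the rest. This split holds for the library total with near-equal entries counted once, and restates the rule by which the 5p strands were chosen. The ratio of the rest was 1.18 with the library total (0.905 to 1.54) and 1.23 to 1.68 in the 4 other scalings. With only exactly equal entries counted once, miR171h-5p had 218 of 498 family reads in PRO and 101 of 272 in PRY.

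In SR against PRY, where root type and age both differ, miR171h-5p was 2.64-fold higher (2.10 to 3.35) and miR171h-3p 5.79-fold higher (2.00 to 22.9). The ratio for miR171d-3p was 1.24 (0.750 to 2.05) and that for miR171f-5p was 0.662 (0.416 to 1.04), both with intervals that include 1. Scaled to the total over distinct miRNA entries these ratios became 2.19 and 1.18. The family's difference was 15.1 RPM and that of miR171h-5p alone 15.5 RPM, while the entries other than both arms of miR171h summed to 7.86 RPM in SR against 9.98 in PRY. That sum had a ratio of 0.788 with the library total (0.589 to 1.05) and turned to 1.10 to 1.40 in the 4 other scalings described below.

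In CR against PRY, miR171h-5p was 2.43-fold higher (1.92 to 3.09) and miR171h-3p 4.91-fold higher (1.64 to 19.8). The ratio for miR171d-3p was 1.05 (0.616 to 1.78), and 2.26 when scaled to the total over distinct miRNA entries. miR171f-5p was 2.38-fold lower (1.40 to 4.17), so miR171h-5p and miR171f-5p, strands from the same arm of related precursors, stood on opposite sides of 1, as they did in all 5 scalings described below. The sum of the entries other than both arms of miR171h was 1.60-fold lower in CR (1.17 to 2.21), but turned to a ratio of 1.35 when scaled to the total over distinct miRNA entries. These 3 comparisons share the PRY library, so its low value enters each of them.

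Among the later libraries the differences of miR171h-5p were small. In CR against PRO, the pair of equal seedling age, the ratio was 1.16 (0.964 to 1.40), and in CR against SR it was 0.920 (0.773 to 1.09). Both intervals include 1. In SR against PRO the ratio was 1.26 (1.05 to 1.51). Ordered by level the libraries were SR, CR, PRO and PRY, in which the neighbours SR and CR, and CR and PRO, do not differ beyond counting error. SR was taken at 7 days and both CR and PRO at 15 days, and the order of SR, CR and PRO changes with scaling, as described below. Whether the level follows age was not tested. miR171h-3p gave 0.675 in CR against PRO (0.363 to 1.23), 0.848 in CR against SR (0.447 to 1.59) and 0.796 in SR against PRO (0.449 to 1.40).

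Other strands of the family were lower in CR than in PRO. With the library total miR171d-3p was 1.91-fold lower in CR (1.23 to 3.03) and miR171f-5p 2.73-fold lower (1.63 to 4.73), and the sum of the entries other than both arms of miR171h was 1.89-fold lower (1.40 to 2.57). Scaled to the total over distinct miRNA entries the ratios of CR to PRO were nearer to 1, at 0.794 for miR171d-3p, 0.557 for miR171f-5p and 0.804 for the sum, and all 3 stayed below 1 in the 5 scalings.

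An entry was counted as changed across the table when log2(RPM + 1) differed by 1 or more and it reached 10 RPM in at least 1 of the 2 libraries. Both 5p entries could be counted and both 3p entries could not, since the latter stayed below 10 RPM. In PRY the 5p entries stood below 10 RPM as well and entered through the other library, so their counts support nothing beyond the values. Neither 5p entry was counted in PRO against PRY, where the difference was 0.99, just under the limit. In that comparison 18.6% of the 102 measured entries were counted as higher. Both 5p entries were counted as higher in SR against PRY, with a difference of 1.31, beside 17.8% of 101 entries. They were also counted in CR against PRY, with a difference of 1.20, beside 16.8% of 101 entries. Since both carry the same values, they are 1 measurement. Neither was counted in CR against SR, CR against PRO or SR against PRO, where 25%, 31.6% and 19.6% of the measured entries were counted in either direction.

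The nearest entries on either side of the limit were miR167b-3p at 1.21 and the 2 miR171 5p entries at 0.99 in PRO against PRY. In SR against PRY they were miR167b-3p at 1.16 and miR164e-5p at 0.67.

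These ratios depend on how libraries are scaled, because the miRNA entries made up different parts of the library totals. With the library total, the median log2 difference of all measured entries was -0.17 in PRO, -0.65 in SR and -0.64 in CR, each against PRY. Other scalings moved these medians by -0.01 to 1.22. The miR171h-5p ratio against PRY was 2.09 to 2.98 in PRO, 2.64 to 4.69 in SR and 2.39 to 5.25 in CR over 5 scalings, with PRY the lowest library in each. The miR171h-3p ratio against PRY ran from 4.83 to 10.6 over the same scalings and libraries. Among the later libraries the order changed: CR against SR ran from 0.551 to 1.12 and CR against PRO from 0.855 to 1.76.

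**Figure D3:**
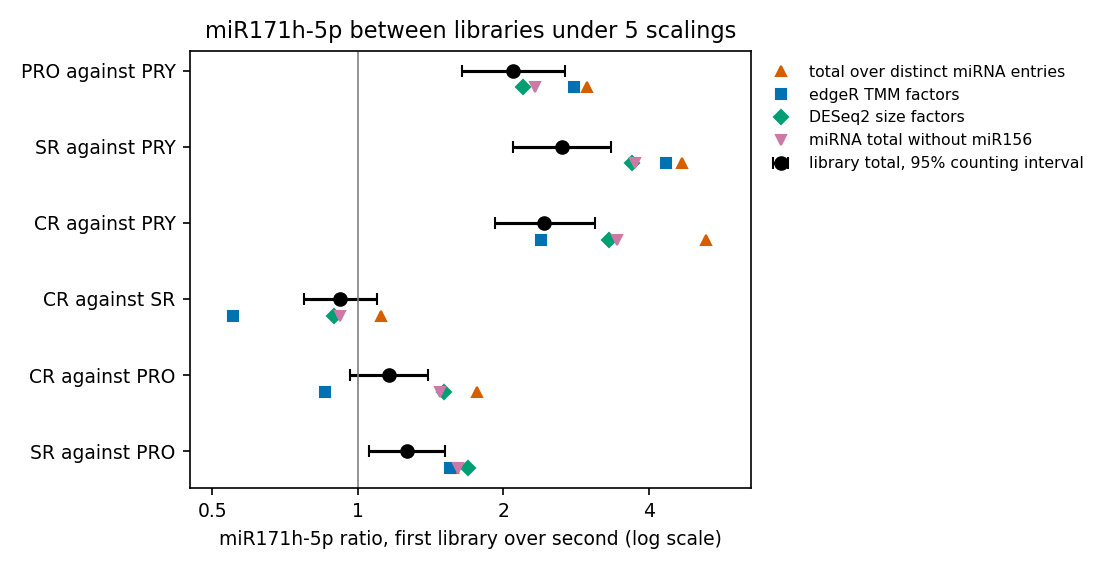
Ratio of miR171h-5p between 2 libraries (x axis, log scale) for 6 comparisons, with the library total (black, exact 95% counting interval) and 4 other scalings (coloured). All points of the comparisons with PRY lie right of 1, from 2.09 to 5.25, whereas those of CR against SR and CR against PRO fall on both sides of 1.

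Shares of reads within a library do not depend on scaling. The 5p strand held 96.2% of the miR171h reads in PRY (90.5 to 99.0), 87.9% in PRO (83.2 to 91.7), 92.0% in SR (88.4 to 94.8) and 92.6% in CR (88.8 to 95.4). The 5p strand was dominant in every library, and the intervals of all 4 libraries overlap, that of PRY resting on 4 reads of the 3p strand. Both arms of miR171f were well represented, with 5p shares of 62.0% in PRY (50.4 to 72.7), 49.2% in PRO (39.8 to 58.5), 47.3% in SR (35.6 to 59.3) and 38.9% in CR (25.9 to 53.1). For miR171i the 5p share was 41.2% in PRY (27.6 to 55.8), 10.4% in PRO (4.30 to 20.3), 23.5% in SR (12.8 to 37.5) and 23.3% in CR (11.8 to 38.6). The 3p reads of miR171f and miR171i are nearly the same in number as those of 4 other members and may be counted for several of them, so their own 5p shares could be higher.

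Against the near-equal 3p strands, miR171h-5p held a similar share in both primary root libraries and a higher one in the other root types. It made up 77.1% of the reads of miR171h-5p and miR171d-3p together in PRY (68.9 to 84.0) and 77.9% in PRO (72.5 to 82.6). The share was 87.8% in SR (83.8 to 91.1) and 88.7% in CR (84.4 to 92.1). The intervals of SR and CR lie above that of PRO, and only that of CR lies above that of PRY, whose upper end at 84.0% meets the interval of SR. In reads, there were 7.81 of miR171h-5p for each of miR171d-3p in CR, 7.20 in SR, 3.52 in PRO and 3.37 in PRY.

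Against miR171f-5p, the other 5p strand, the share of miR171h-5p differed in steps. It was 67.3% in PRY (59.2 to 74.8), 79.0% in PRO (73.7 to 83.6), 89.2% in SR (85.3 to 92.3) and 92.3% in CR (88.4 to 95.1). The intervals of PRY and PRO meet at their ends, those of SR and CR overlap, and both of the latter lie above both of the former.

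**Figure D4:**
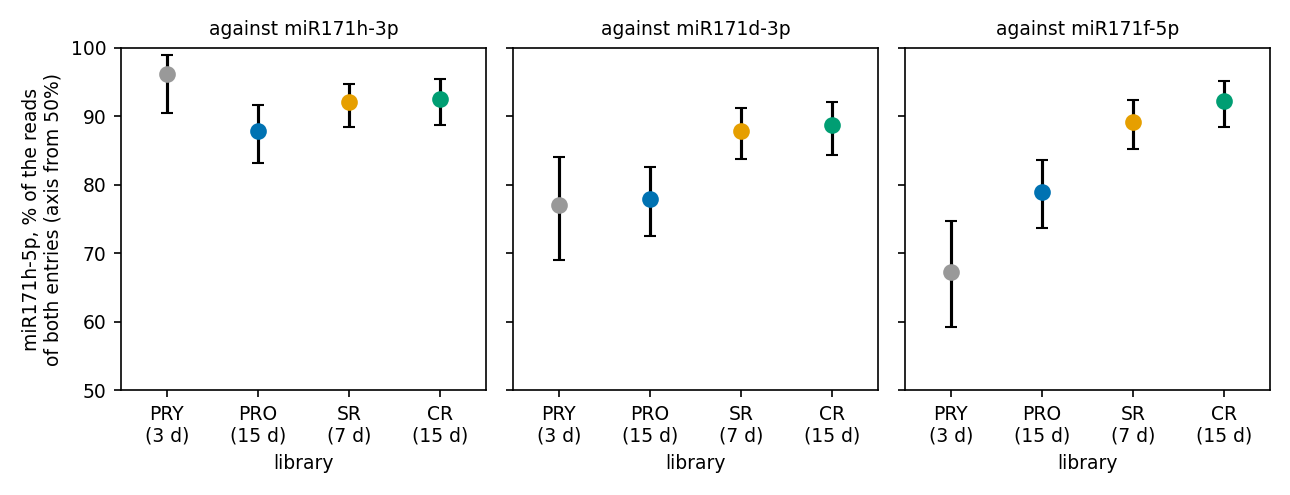
Share of miR171h-5p in the reads of itself and 1 other strand, miR171h-3p (left), miR171d-3p (middle) or miR171f-5p (right), in percent with exact 95% intervals, on an axis that starts at 50%. In the middle and right panels SR and CR, at 87.8% to 92.3%, lie above PRO, at 77.9% and 79.0%, whereas in the left panel all intervals overlap.

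Likeness to other miRNAs was measured as the distance between profiles of log2(RPM + 1) over the 4 libraries, each centred on its own mean, among 68 known entries outside the family. The nearest was miR167b-3p, a star strand of a family that targets auxin response factors, at a distance of 0.34 against a median of 1.64 over the 68. It reached 14.7 RPM in CR, 12.1 in PRO, 11.7 in SR and 4.66 in PRY, so it shared the low PRY value and differed in being highest in CR. The next were miR164g-5p, miR164b-5p, miR164c-5p and miR164a-5p, at distances of 0.80 to 0.81. They belong to a family that targets NAC transcription factors, and their values are nearly equal, so they count as 1 profile. miR164a-5p reached 76.2 RPM in CR, 50.3 in PRO, 43.3 in SR and 35.7 in PRY, with a lower SR value than PRO value, unlike miR171h-5p.

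**Figure D5:**
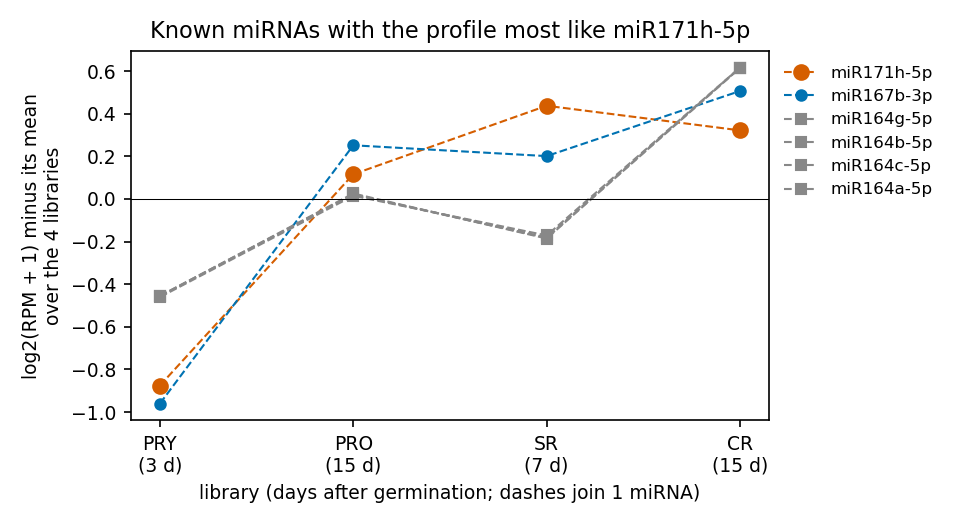
Profiles of miR171h-5p and of the 5 known entries nearest to it, as log2(RPM + 1) minus each entry's mean over the 4 libraries; dashes join the points of 1 miRNA and imply no time course. All 6 are lowest in PRY, miR171h-5p is highest in SR, and the other 5 are highest in CR.

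Other families that act on transcription factors of meristems and patterning (miR159, miR164, miR166, miR169, miR319 and miR396, with 117 entries listed) are given as context, each against PRY. In SR, 0 of 40 measured entries were counted as higher and 13 as lower, beside 18 and 30 of 101 over all entries. Of the 13, 9 were miR169 and 4 miR319. The median log2 difference was -0.72 against -0.65 over all entries. In CR, 5 were higher, all of them miR164, and 5 lower, beside 17 and 25 of 101 over all entries. The median was -0.67 against -0.64. In PRO, 1 was higher and 3 lower, beside 19 and 17 of 102 over all entries, with a median of -0.21 against -0.17. Entries of a family can have nearly equal values, as those of miR164 do, so they are not independent. Scaled to the total over distinct miRNA entries, the same list had 6 higher and 2 lower of 37 in SR, and 10 higher and 1 lower of 38 in CR. In PRO it had 1 higher and 0 lower of 38. Over all entries, 26 were higher and 3 lower of 97 in SR, 42 and 12 of 99 in CR, and 29 and 5 of 95 in PRO. The medians of the list turned to 0.11 in SR, 0.44 in CR and 0.27 in PRO. The miR171 5p entries were on the higher side in SR and CR under each of the 5 scalings.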

How the data were processed

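Small RNA was cut out of a denaturing gel at 18 to 30 nt, joined to adapters at both ends, copied in 18 cycles of PCR and read on an Illumina/Solexa instrument, per the labels' protocols. Which aligner, miRNA reference and rule for reads that match several entries were used was not given in the sources used here. Values in the deposited table are called TPM per the file headers and were treated as RPM, because the authors' values are whole multiples of a fixed step in each library. Recovered reads were whole within 0.01 read for 100% of the values. No count test was run on them, since edgeR cannot estimate a spread from 1 library in each group.

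Ratios have exact conditional binomial intervals, shares exact binomial (Clopper-Pearson) intervals and levels exact Poisson intervals, all at 95%. Entries were counted as changed with a pseudocount of 1 RPM and a minimum of 10 RPM, which understates ratios of low entries. Sums over the family took entries of equal values once and miR171d-3p for the 6 near-equal 3p strands. Scalings were the library total, TMM factors from edgeR (4.0.16), size factors from DESeq2 (1.42.0), the total over distinct miRNA entries and that total without miR156. Scaled totals kept the geometric mean of the library totals. The rule for named entries was the 4 members, the remaining miR171 entries as context, and the 5 known entries outside the family, at 10 RPM or more in a library, with the nearest centred profile. The members, lists and rules were chosen with earlier results of these data known, and miR171d-3p as stand-in and the pairs of strands compared within a library were chosen after their values were seen. RefSeq's gene table was used for names and gene order, with all 14 miR171 genes matched. The call code was tested on simulated data. Python 3.11.15, pandas 2.3.3, numpy 2.4.6, scipy 1.17.1, matplotlib 3.10.9 and R 4.3.3 were used.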

Additional observations from a re-analysis of the deposited data

How the results depend on the processing

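Limits come from the single library per group and from 4 to 30 reads behind the 3p strand, whose ratios against PRY have wide intervals. Scaling decided the size of the miR171h-5p ratios, of which 19 of 24 alternatives lay outside the counting interval of the value with the library total and none took a 2-fold difference across 1. With the total over distinct miRNA entries the ratio was 2.98 in PRO, 4.69 in SR and 5.25 in CR, each against PRY, 1.12 in CR against SR, 1.76 in CR against PRO and 1.58 in SR against PRO. With TMM factors it was 2.80 in PRO and 4.34 in SR against PRY, 0.551 in CR against SR, 0.855 in CR against PRO and 1.55 in SR against PRO. With DESeq2 factors it was 3.70 in SR and 3.31 in CR against PRY, 1.51 in CR against PRO and 1.69 in SR against PRO. Without miR156 in the total it was 3.74 in SR and 3.44 in CR against PRY, 1.48 in CR against PRO and 1.61 in SR against PRO.

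Of the 4 entries, 0 were counted as changed in PRO against PRY, and 2 with each of the 4 other scalings and with no pseudocount (both 5p entries), and 2 with no minimum (both 3p entries). In SR and CR against PRY 2 were counted, and 4 with no minimum, 0 with a pseudocount of 10 RPM and 0 with a minimum of 50 RPM, which no entry of the family reached. None was counted among the later libraries under any of these 8 alternatives. Over all entries, the 4 other scalings gave 2 to 17 higher and 5 to 31 lower of 95 to 99 in CR against SR. In CR against PRO they gave 3 to 11 higher and 10 to 41 lower of 95 to 99. In SR against PRO they gave 5 to 7 higher and 3 to 5 lower of 95 to 98. With the 4 other scalings, 20 to 29 of 95 to 101 measured entries were counted as higher in PRO against PRY. No share over all entries is given for the changed pseudocounts and minimums, so those counts describe the members alone. Across all entries, the numbers counted as higher and lower moved from 19 and 17 to 29 and 5 in PRO, from 18 and 30 to 26 and 3 in SR and from 17 and 25 to 42 and 12 in CR, each against PRY, with the distinct total, and from 3 and 27 to 3 and 41 in CR against PRO with TMM factors. Over all distinct entries of the family, the 5p share was 69.7% in CR, 69.5% in SR, 63.2% in PRY and 56.8% in PRO. That total takes only exactly equal entries once and counts the 6 near-equal 3p strands repeatedly, which lowers the 5p share. With miR171k in place of miR171h, the 5p share of miR171h given above was unchanged.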

Other observations

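The balance of strands was set beside that of other known miRNAs. In 60 loci, both arms together had at least 100 reads in each of the 4 libraries, miR171h and miR171k among them. Of the other 58 loci, 50 had a minor arm under 5% of the reads in all 4 libraries, and 8 exceeded that in at least 1 library. The 8 were miR159a, miR167h, miR167i, miR169a, miR169b, miR169c, miR172b and miR172d, named here after their values were seen. The minor 3p arm of miR171h held 3.81% of the reads in PRY and 7.41% to 12.1% in the other libraries. For miR167h, the 5p share was 92.2% in PRO, 83.7% in SR, 77.3% in CR and 66.9% in PRY, so PRY and PRO were at the opposite ends from those of miR171h, where PRY had the highest share and PRO the lowest. miR167i was nearly equal to miR167h. The minor 5p arm of miR172b held 20.6% in PRO, 17.9% in SR, 14.6% in CR and 12% in PRY. That is the order of the minor arm of miR171h, and miR172d had it too. miR159a, miR169a, miR169b and miR169c had neither order. The intervals of the miR171h shares all overlap, as given above. Loci of a family can share reads, so they are not independent.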
